A study of Mus musculus with 12 samples.

Results

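The proteasome subunit genes were described in mouse CD8+ T cells, as 43 of the 55487 genes of the deposited count table. The members were chosen by symbol: all genes named Psma, Psmb, Psmc or Psmd with a number, together with Psme1 to Psme4, Psmf1 and Psmg1 to Psmg4, if their mean over the 12 libraries was at least 1 CPM (counts per 1e+06 counts, on scaled library sizes). The immunoproteasome genes Psmb8, Psmb9 and Psmb10 were kept apart from this set. Of 45 genes with such symbols, Psma8, the testis form of an alpha subunit, at a mean of 0.209 CPM, and Psmb11, the thymus form of a beta subunit, at 0.0292 CPM, fell below the limit. The members closest above it were Psmg3 at 6.27 CPM and Psmg4 at 15.7 CPM. The 43 members comprised 14 subunits of the core, 17 subunits of the regulatory cap, 7 assembly chaperones and 5 other activators or inhibitors.

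The libraries came from CD8+ T cells of splenocytes of C57BL/6 mice, treated with IL-2, with IL-2 and 80%TCM, with IL-12, or with IL-12 and 80%TCM, with 3 libraries in each of the 4 groups. IL-2 promotes growth of activated T cells; IL-12, made by antigen-presenting cells, drives them to produce interferon gamma. The labels leave TCM unexplained, the series title refers to tumor-like conditions, and the labels give no age, sex, time or dose besides the 80% of the name, nor whether the IL-12 cultures also received IL-2. The label text on RNA extraction refers to livers of mice given vehicle or bortezomib, a proteasome inhibitor, whereas no title or treatment label includes that drug, and this could not be settled here. Because separate animals or cultures per library are not stated, each p-value speaks for the variation among these libraries alone, and part of it may be technical. Total counts, in units of 1e+06, were 19.5 to 26 in 10 libraries and 49.6 and 42.3 in IL-12 replicates 1 and 2. The members received 100081 to 323456 counts per library.

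The proteasome degrades proteins that carry ubiquitin chains. Its barrel-shaped core is built of alpha rings, which gate the entrance, and beta rings, which hold the proteolytic sites. The cap binds ubiquitin chains, removes them, and unfolds the substrate with a ring of ATPases before it is threaded into the core. Dedicated chaperones assemble core and cap, and other activators can bind the core in place of the cap. In T cells, as in other cells of the immune system, immunoproteasome subunits replace the catalytic beta subunits in part of the particles and shape the peptides presented on MHC class I molecules.

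Promoter sequences are shown for 5 members of the core, cap and assembly classes. Psmb5 and Psmb6 encode catalytic beta subunits, Psmc1 an ATPase of the cap and Psmd2 a scaffold of the cap. Psmg1 encodes a chaperone of the alpha ring. Each run is the 250 bases before RefSeq's transcription start in build GRCm38.p6, read 5′ to 3′ on the strand of the gene, at chr14:54617996-54618245 on the minus strand for Psmb5, chr11:70525107-70525356 on the plus strand for Psmb6, chr12:100109952-100110201 on the plus strand for Psmc1, chr16:20651402-20651651 on the plus strand for Psmd2 and chr16:95990961-95991210 on the minus strand for Psmg1. Capitals mark matches, on either strand, to the letters of 5 motifs: the antioxidant response element core TGACNNNGC, the CCAAT box, the ETS motif CCGGAAG, the STAT motif TTCNNNGAA and the interferon-stimulated response element (GAAA, 2 bases, GAAA). Matches to different motifs do not overlap in these runs.
Psmb5: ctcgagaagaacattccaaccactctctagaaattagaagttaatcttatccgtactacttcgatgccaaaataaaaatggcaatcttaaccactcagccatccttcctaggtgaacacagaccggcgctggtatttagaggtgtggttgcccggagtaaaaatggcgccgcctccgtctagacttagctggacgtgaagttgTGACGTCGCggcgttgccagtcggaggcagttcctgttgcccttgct
Psmb6: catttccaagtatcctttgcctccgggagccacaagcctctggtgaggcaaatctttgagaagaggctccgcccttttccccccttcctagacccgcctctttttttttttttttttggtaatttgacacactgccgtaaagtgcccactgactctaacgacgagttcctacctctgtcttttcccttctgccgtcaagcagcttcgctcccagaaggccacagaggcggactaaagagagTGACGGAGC
Psmc1: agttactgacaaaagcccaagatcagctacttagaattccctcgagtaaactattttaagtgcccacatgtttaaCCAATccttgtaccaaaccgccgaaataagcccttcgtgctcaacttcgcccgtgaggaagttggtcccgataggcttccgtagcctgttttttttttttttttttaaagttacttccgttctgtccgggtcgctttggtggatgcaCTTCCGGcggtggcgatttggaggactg
Psmd2: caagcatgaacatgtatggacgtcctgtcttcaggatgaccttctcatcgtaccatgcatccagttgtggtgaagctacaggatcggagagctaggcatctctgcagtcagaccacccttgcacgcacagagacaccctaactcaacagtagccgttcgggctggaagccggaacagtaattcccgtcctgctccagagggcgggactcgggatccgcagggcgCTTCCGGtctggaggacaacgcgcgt
Psmg1: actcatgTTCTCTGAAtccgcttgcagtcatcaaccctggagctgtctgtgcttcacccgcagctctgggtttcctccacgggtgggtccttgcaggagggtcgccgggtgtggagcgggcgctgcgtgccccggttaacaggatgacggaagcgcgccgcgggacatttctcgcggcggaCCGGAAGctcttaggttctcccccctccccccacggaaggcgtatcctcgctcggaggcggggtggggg

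RefSeq's promoter table held 36 of the 43 members and 27025 genes in all. The ETS letters stood in the 250-base windows of 12 of the 36 members, or 33.3%, beside 7.83% of all genes with a window. These 12 included 8 subunits of the cap, among them Psmc1, Psmc2, Psmc6 and Psmd2. The antioxidant response element core stood in 5 of 36 windows, those of Psmb5, Psmb6, Psmc6, Psmd12 and Psmd9, a share of 13.9% beside 11.5% of all genes. CCAAT was found in 33.3% of members and 37.5% of all genes, and the interferon-stimulated element in 8.33% and 3.46%. Psmg1 was the one member of the 36 with the STAT letters, a share of 2.78% beside 8.13% of all genes. Member windows were richer in G and C than windows in general, with medians of 57.6% and 52.4%, and the shares were not adjusted for composition. A match describes letters only, and no binding was measured.

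The labelled cell type was checked against marker genes. The summed level of 8 CD8 T cell markers was 3790 to 4740 CPM in the 12 libraries. The summed level of 6 B cell markers was 461 to 792 CPM in the IL-2 libraries, 307 to 738 CPM in IL-2 with TCM, 89.9 to 92.8 CPM in IL-12 and 68.8 to 73.5 CPM in IL-12 with TCM. The 5 platelet markers, of which 1 was at 0 throughout, summed to 102 to 124, 41.8 to 54.2, 57 to 67.5 and 23.2 to 29.5 CPM in the same order, and all 4 tested were lower in IL-12 than in IL-2 and lower with TCM than without it in both cytokines. The 4 markers of CD4 and regulatory T cells summed to 17.6 to 23.5, 19.9 to 33.6, 16.2 to 17.2 and 29.2 to 33.1 CPM, and of the 3 tested 1 was higher with TCM in IL-2 and 2 in IL-12. Most of this sum was Zbtb7b, with group means of 16.9, 20.6, 15.1 and 27.8 CPM. Cd4 had means of 1.21, 3.81, 0.584 and 2.45 CPM. The regulatory T cell marker Foxp3 went the other way with TCM, at 1.61, 1.15, 0.603 and 0.462 CPM. Cd40lg changed little with TCM, at 0.272, 0.29, 0.467 and 0.485 CPM. The 4 NK cell markers summed to 55.9 to 59.6, 51.3 to 68.1, 25.9 to 28.6 and 20.1 to 25.5 CPM, nearly all of it Eomes, which CD8 T cells express as well, with group means of 57.3, 59.8, 26.8 and 21.8 CPM. The 8 markers of myeloid cells summed to 11.2 to 16.2, 11.8 to 18.5, 17 to 18.5 and 18 to 21.6 CPM in the same order. Among them Xcr1 had group means of 2.14, 0.602, 10.3 and 8.57 CPM, and Cd68 of 8.41, 11.8, 6.36 and 9.09 CPM. The 4 markers of erythroid cells summed to at most 1.55 CPM. The B cell, platelet and NK cell sums thus moved with the cytokine, that of NK cell markers mostly through Eomes, and the platelet sum with TCM. Without TCM the myeloid sum was also higher in IL-12 than in IL-2, while Xcr1 and Cd68 went opposite ways. In IL-12 the sum of CD4 and regulatory T cell markers was also higher with TCM, mostly through Zbtb7b, while Foxp3 was not higher. The part of these cell types in the results below was not tested. Replicate 3 of both IL-2 groups stood apart from replicates 1 and 2: on the log2 scale, the median level of 10 glycolysis genes was 1.46 higher in the IL-2 group and 1.67 higher with TCM. For 8 hypoxia response genes the shifts were 1.78 and 2.19. The members shifted the other way in these libraries, by a median of -0.15 in the IL-2 group, where 38 of 43 were lower, and by -0.06 with TCM, where 32 were lower, against 0.02 and 0.01 for all genes tested. Replicate 3 of the IL-12 groups differed from its partners by medians of -0.06 and -0.03 for the members, with 37 and 32 of 43 lower. The members' median shift in IL-2 with TCM was thus no larger than that in plain IL-12.

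By median level per length the core genes stood highest and the chaperones lowest. Expressed per kilobase of exon, the mean level over the 12 libraries had a median of 113.5 CPM per kilobase for the 14 core genes, within 39.4 to 194. The length merges the exons of a gene's annotated transcripts, such as 3427 bases for Psmb1 and 899 for Psmb5. It can exceed that of any single transcript, which lowers the value per kilobase, and other lengths were not tried. The 17 cap genes had a median of 70.7 CPM per kilobase (32.4 to 118), and the 7 assembly genes one of 20.1 (7.1 to 28.3). Psme1 and Psme2, which encode the alpha and beta subunits of the interferon-inducible activator PA28, stood at 295 and 279 CPM per kilobase. Among the catalytic subunits Psmb6 stood at 139, Psmb7 at 51.6 and Psmb5 at 39.4 CPM per kilobase, so the gene with the chymotrypsin-like site, Psmb5, was the lowest of the 14 core genes. Psme2 is uncertain in level, because the near-identical gene Psme2b received 652 to 2007 counts per library and how reads matching both genes were counted is not stated.

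The summed level of the members differed between the groups in the order IL-12, IL-12 with TCM, IL-2, IL-2 with TCM. The 43 members together held 6611 ± 206 CPM (mean ± SD, n = 3) in IL-12, 5713 ± 110 CPM in IL-12 with TCM, 5034 ± 331 CPM in IL-2 and 4768 ± 200 CPM in IL-2 with TCM. The single libraries gave 6839, 6554 and 6440 CPM in IL-12 and 5810, 5735 and 5593 CPM in IL-12 with TCM. They gave 5294, 5146 and 4662 CPM in IL-2 and 4849, 4915 and 4541 CPM in IL-2 with TCM. Both IL-12 groups lay above every IL-2 library and did not overlap each other, while the IL-2 groups overlapped, and the lowest library of each IL-2 group was replicate 3. In bulk RNA, a lower share of cells that express these genes and less of their RNA per cell cannot be told apart. The core sum was 2396 ± 78 CPM in IL-12, 2098 ± 38.8 CPM in IL-12 with TCM, 1824 ± 92.7 CPM in IL-2 and 1782 ± 63.3 CPM in IL-2 with TCM. The cap sum followed the same order at 2888 ± 90.6, 2402 ± 50, 2124 ± 185 and 1981 ± 122 CPM. The assembly genes summed to 213.2 ± 7.04, 191 ± 1.91, 182.3 ± 8.32 and 179.6 ± 9.06 CPM, a narrower range. For 38 of the 43 members the IL-12 group had the highest of the 4 means, the exceptions being Psme4, Psmf1, Psmd10, Psmg1 and Psmg4. The mean of 35 members fell from IL-12 over IL-12 with TCM to IL-2.

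**Figure D1:**
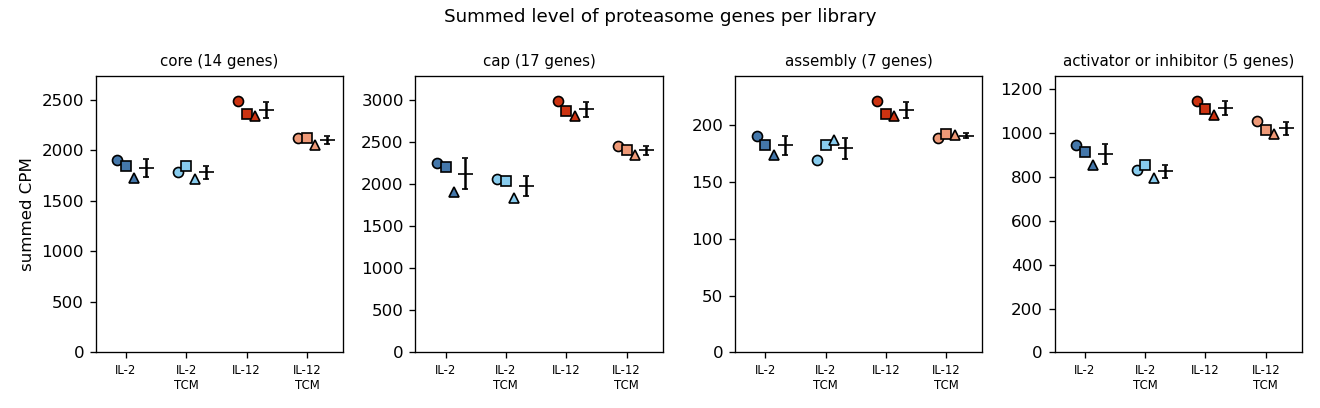
Summed CPM of the core, cap, assembly and activator or inhibitor genes in each of the 12 libraries (circle, square and triangle are replicates 1, 2 and 3), with mean ± SD per group to the right of the points. The 3 IL-12 libraries were highest in each panel, and triangles of the IL-2 groups were lowest in the core and cap panels.

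In plain IL-12 against plain IL-2, the question was how the cytokine relates to the level of these genes, and the RNA of most members was higher in IL-12. By edgeR's quasi-likelihood test with Benjamini-Hochberg adjustment over all 15897 genes tested and a threshold of 0.05, 37 of the 43 members were higher, or 86%, where 22.1% of all genes tested were higher. No member was lower, with 0 at an unadjusted p under 0.05 and 0 by DESeq2 or limma, where 23% of all genes were lower. The median log2 fold change of the members was 0.40, a fold of 1.32, against -0.01 for all genes. The count was 37 also without replicate 3 of both IL-2 groups, beside 26.3% of all genes, but the members' median was then 0.34. With upper-quartile scaling in place of trimmed mean of M-values (TMM) scaling the members' median was 0.32 and that of all genes -0.09, and Psme4 and Psmg4 were at -0.07 and -0.08.

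All 14 core genes rose in IL-12 in this comparison. Psmb5, which encodes the chymotrypsin-like subunit that bortezomib binds, stood at 35, 31.9 and 24.9 CPM in IL-2 and at 50, 45.1 and 45.8 CPM in IL-12. Every IL-12 library was above every IL-2 library, and replicate 3 was the lowest of the IL-2 group. The log2 fold change of Psmb5 was 0.62 ± 0.11 (SE; edgeR adjusted p = 0.00071), and it ranged from 0.48 to 0.74 under 23 alternatives. Psmb6, the caspase-like subunit, was at 98.6, 96.8 and 89.5 CPM in IL-2 and 144, 137 and 136 CPM in IL-12, a change of 0.55 ± 0.05 with an adjusted p of 1.9e-06, the smallest of the members here. The values did not overlap. Psmb7, the trypsin-like subunit, was at 57.7, 51.7 and 51.4 CPM in IL-2 and 75, 69.8 and 68.8 CPM in IL-12, a log2 change of 0.41 ± 0.06 (edgeR adjusted p = 6.8e-05). Without counting by strand its reads could include some of Nek6, an antisense gene whose level as a whole was 24.1% of that of Psmb7. Only reads where the exons overlap could be shared, and the longest such overlap is 253 bases. The 7 alpha ring genes rose by 0.27 to 0.59 on the log2 scale and the 4 beta ring genes without a proteolytic site by 0.20 to 0.47. Psmb1 was the core gene with the smallest rise, at 206, 198 and 187 CPM in IL-2 and 229, 221 and 227 CPM in IL-12 (0.20 ± 0.05; edgeR adjusted p = 0.0042). Its groups did not overlap, but its call was lost with upper-quartile scaling, at an adjusted p of 0.054.

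Of the 17 cap genes 16 rose, with a median of 0.43 on the log2 scale. Psmc4, an ATPase of the base, had the largest log2 fold change of all members. It stood at 125, 116 and 90.6 CPM in IL-2 and 185, 176 and 180 CPM in IL-12, which do not overlap, and changed by 0.71 ± 0.11 (edgeR adjusted p = 0.00016). Under the 23 alternatives the change of Psmc4 ranged from 0.56 to 0.81. Psmd1, a scaffold of the base, was at 131, 123 and 103 CPM in IL-2 and 192, 180 and 172 CPM in IL-12 (0.61 ± 0.11; adjusted p = 0.00089 by edgeR). Its change ranged from 0.43 to 0.69 under the 23 alternatives. Psmd14, the deubiquitinase of the lid, was at 113, 112 and 104 CPM in IL-2 and at 152, 141 and 137 CPM in IL-12 (0.39 ± 0.06). Both genes were higher in each IL-12 library than in any IL-2 library. Psmd4, a ubiquitin receptor, was at 126, 126 and 103 CPM in IL-2 and 148, 154 and 155 CPM in IL-12 (0.36 ± 0.08; edgeR adjusted p = 0.002). The 8 lid genes all rose, by 0.33 to 0.56. The ATPase Psmc6 was the cap gene that did not pass, at 101, 95.8 and 98.9 CPM in IL-2 and 109, 102 and 101 CPM in IL-12, groups whose values are close but do not overlap (0.08 ± 0.05; edgeR adjusted p = 0.24).

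Of the 7 assembly genes 3 rose, with a median log2 fold change of 0.19. Whether the classes differ from each other was not tested. Psmd9, a chaperone of the cap's base, was at 29.2, 27.3 and 29.1 CPM in IL-2 and 38.8, 38.3 and 35.7 CPM in IL-12, without overlap (0.40 ± 0.07; edgeR adjusted p = 0.00031). Psmg1, which pairs with Psmg2 in alpha ring assembly, was at 24.8, 24.5 and 21 CPM in IL-2 and 30.1, 27.8 and 31.1 CPM in IL-12 (0.34 ± 0.09; edgeR adjusted p = 0.006), and Psmg2 missed the threshold at 0.26 ± 0.10 (adjusted p = 0.055). Psmd5, a chaperone of the base as well, was at 49.3, 43.9 and 41.9 CPM in IL-2 and 55, 48.3 and 50.3 CPM in IL-12. Its groups overlapped, and its edgeR adjusted p of 0.047 rose to as much as 0.24 under the alternatives: the call was lost under 14 of 23, among them leaving out any library except IL-2 replicate 1, IL-2 TCM replicate 3 or IL-12 replicate 2. Psmd10, Psmg3 and Psmg4 had log2 fold changes of 0.09, 0.18 and 0.00. Of the 5 activators and inhibitors, 4 rose. Psme1 was at 335, 325 and 319 CPM in IL-2 and 380, 367 and 362 CPM in IL-12 (0.18 ± 0.05), a call lost with upper-quartile scaling. Psme2 was at 260, 249 and 237 CPM in IL-2 and 332, 334 and 318 CPM in IL-12 (0.40 ± 0.05). Neither gene had overlapping groups. Psme4, which encodes the activator PA200, had a log2 fold change of 0.01.

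**Figure D2:**
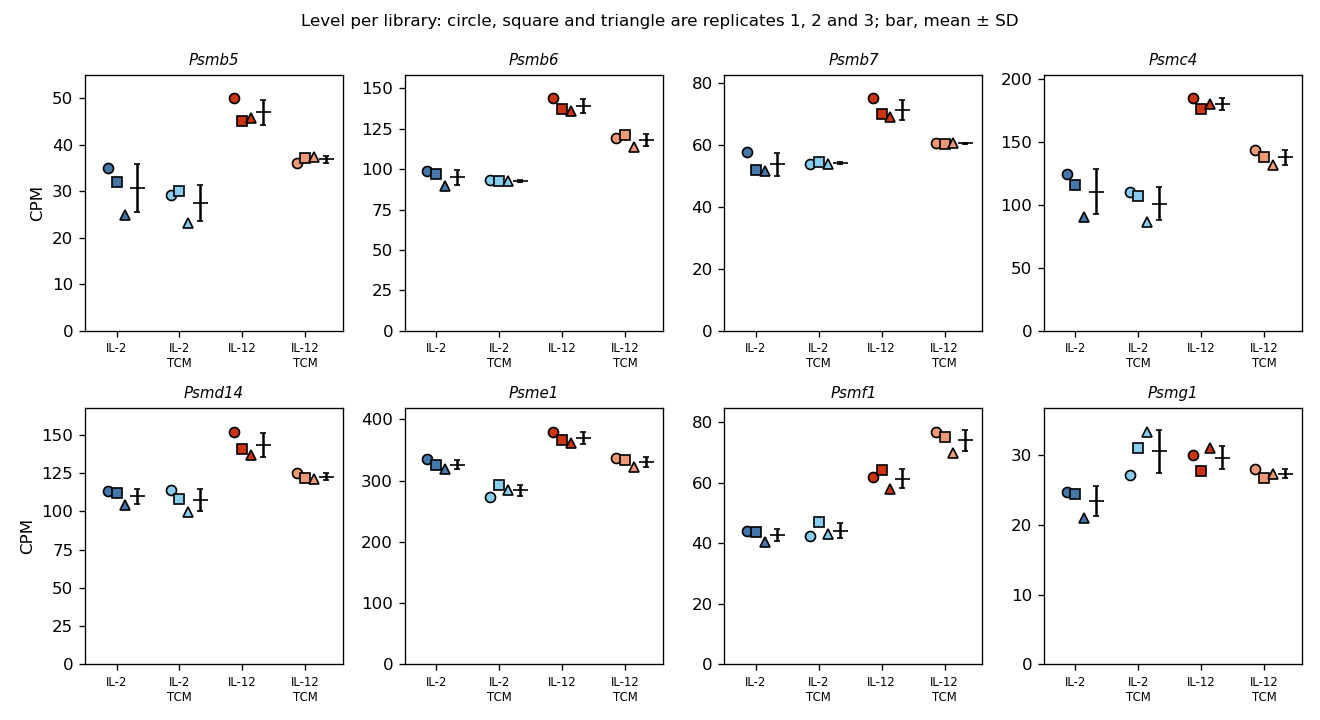
CPM of Psmb5, Psmb6, Psmb7, Psmc4, Psmd14, Psme1, Psmf1 and Psmg1 in each library (circle, square and triangle are replicates 1, 2 and 3), with mean ± SD per group. The plain IL-12 points lie above the plain IL-2 points in all 8 panels, Psmf1 is highest in IL-12 with TCM at 69.9 to 76.8 CPM, and Psmg1 is higher in IL-2 with TCM than in IL-2.

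With TCM present in both arms, 26 of 43 members were higher in IL-12 than in IL-2, or 60.5%, beside 19.5% of all genes tested. No member was lower by edgeR, with 0 at an unadjusted p under 0.05 and 0 by DESeq2 or limma, beside 19.4% of all genes. With upper-quartile scaling 2 were lower, Psmg1 at -0.24 and Psmc6 at -0.17, beside 25% of all genes. The median log2 fold change was 0.22, 0.14 with upper-quartile scaling, under which Psma4, Psma5 and Psmb1 also turned from positive to -0.02, -0.01 and -0.01. The count of higher members was 17 without IL-12 TCM replicate 1, beside 14.7% of all genes, and 29 without replicate 3 of both IL-2 groups, beside 23.5%.

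By class, 9 of 14 core genes, 12 of 17 cap genes, 1 of 7 assembly genes and 4 of 5 activators or inhibitors rose under TCM. Psmf1, which encodes the proteasome inhibitor PI31, had the largest log2 fold change. It was at 42.3, 47 and 43.1 CPM in IL-2 with TCM and 76.8, 75 and 69.9 CPM in IL-12 with TCM, without overlap (0.74 ± 0.06; edgeR adjusted p = 8.6e-07). Psmd13, a lid subunit, was at 137, 141 and 118 CPM in IL-2 with TCM and 190, 188 and 187 CPM in IL-12 with TCM (0.51 ± 0.08; edgeR adjusted p = 0.00025). The antisense gene Sirt3 as a whole stood at 10.4% of the level of Psmd13, with a longest exon overlap of 329 bases. Among the catalytic subunits Psmb5 was at 29.1, 30.1 and 23.1 CPM in IL-2 with TCM and 36, 37.1 and 37.4 CPM in IL-12 with TCM (0.42 ± 0.12). Psmb6 was at 93.2, 92.4 and 92.6 CPM against 119, 121 and 114 CPM (0.35 ± 0.05), and Psmb7 at 53.9, 54.5 and 53.8 CPM against 60.5, 60.2 and 60.6 CPM (0.16 ± 0.06; edgeR adjusted p = 0.039). The libraries of the catalytic genes did not overlap. The call of Psmb7 was lost under 15 of 23 alternatives, among them leaving out any library except IL-2 replicate 1 or 3, with adjusted p-values up to 0.25. Weakest among the calls were also Psmd11 and Psma6, a lid and an alpha ring gene, at 0.16 ± 0.06 and 0.19 ± 0.06. Psmd11 lost its call under 14 of 23 alternatives, with any library left out except IL-2 replicate 3 or IL-2 TCM replicate 2, and Psma6 under 6, among them without IL-2 TCM replicate 1 or 3 or any IL-12 TCM library. Psmc4 kept its rise, at 110, 107 and 86.4 CPM against 144, 138 and 132 CPM (0.45 ± 0.11), and Psme1 and Psme2 rose by 0.22 ± 0.05 and 0.40 ± 0.05. The call of Psmd14 (0.20 ± 0.06) was lost under 8 of 23 alternatives, including those without any one IL-12 TCM library or IL-2 TCM replicate 2 or 3. Psmd4 (0.29 ± 0.08) lost its call without IL-12 TCM replicate 3. Psmd9, the single assembly gene that passed, was at 27.6, 24.7 and 27.2 CPM against 32.4, 31.4 and 29.2 CPM (0.23 ± 0.07; edgeR adjusted p = 0.017), and its call was lost under 7 of 23 alternatives, among them without IL-2 TCM replicate 2 or IL-12 TCM replicate 1 or 2. This comparison shares no library with the one in the absence of TCM.

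**Figure D3:**
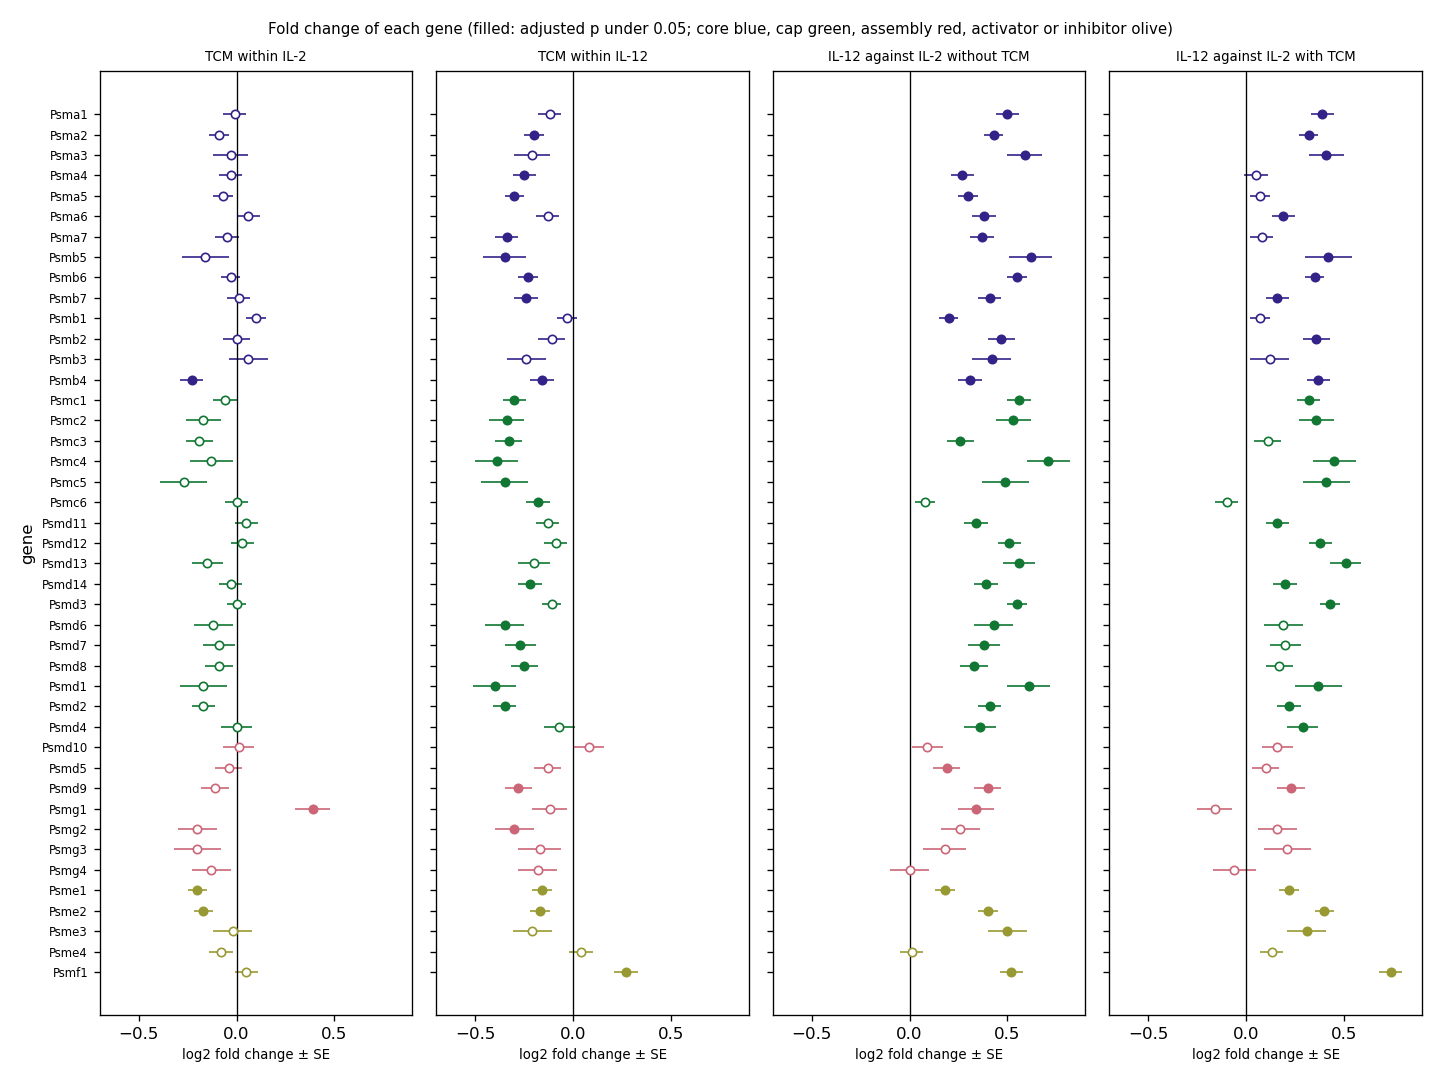
Log2 fold change ± SE of each of the 43 members (rows) in 4 comparisons (panels), coloured by class and filled where the edgeR adjusted p was under 0.05. In the third panel, IL-12 against IL-2 without TCM, 37 points are filled and all lie at or right of 0, and in the second panel, TCM within IL-12, 24 filled points lie left of 0 and 1, Psmf1, right of it.

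TCM in the IL-12 cultures went with lower levels of most of these genes. With edgeR, 24 of 43 members fell, or 55.8%, beside 14.2% of all genes tested, and 1 member rose, beside 14.8% of all genes. The log2 fold change was below 0 in 40 of the 43, with a median of -0.21 against 0.01 for all genes. The size of the changes was modest, at most -0.40 on the log2 scale. The number that fell was 10 without IL-12 replicate 1, 15 without IL-12 TCM replicate 2 and 10 without IL-12 TCM replicate 3. In these fits 9.36%, 9.73% and 9.45% of all genes fell, and the members' medians were between -0.19 and -0.22. The number was 35, beside 22.9% of all genes, without replicate 3 of both IL-2 groups, which enter this test through the shared estimate of the spread.

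All 6 ATPases of the cap fell, by 0.18 to 0.39 on the log2 scale, and 12 of the 17 cap genes in all. Psmd1 had the lowest log2 fold change of the members. It was at 192, 180 and 172 CPM in IL-12 and 141, 139 and 131 CPM in IL-12 with TCM, without overlap (-0.40 ± 0.11; edgeR adjusted p = 0.019). Psmc4 was at 185, 176 and 180 CPM in IL-12 and 144, 138 and 132 CPM with TCM (-0.39 ± 0.11; edgeR adjusted p = 0.016), and the lid subunit Psmd6 at 111, 107 and 108 CPM and 82.5, 87 and 86 CPM (-0.35 ± 0.10; adjusted p = 0.017). The groups of both genes were apart. The calls of Psmd1, Psmc4 and Psmd14 were each lost without IL-12 replicate 1 or without IL-12 TCM replicate 2 or 3, and that of Psmd6 without IL-12 replicate 1 or IL-12 TCM replicate 1 or 3, with adjusted p-values of at most 0.083 among these 4 genes. Psmd2, a scaffold that receives ubiquitin receptors, stood at 399, 380 and 373 CPM and at 318, 294 and 291 CPM with TCM (-0.35 ± 0.06; edgeR adjusted p = 0.001). The deubiquitinase gene Psmd14 was at 152, 141 and 137 CPM and at 125, 122 and 121 CPM with TCM (-0.22 ± 0.06; edgeR adjusted p = 0.016). Both Psmd2 and Psmd14 were lower in every library with TCM. The ubiquitin receptor gene Psmd4 was one of the 5 cap genes that did not pass, at 148, 154 and 155 CPM and 144, 143 and 147 CPM (-0.07 ± 0.08; edgeR adjusted p = 0.51).

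Among the core genes 8 of 14 fell with TCM in IL-12, including the 3 catalytic ones. Psmb6 and Psmb7 changed by -0.23 ± 0.05 and -0.24 ± 0.06, to 119, 121 and 114 CPM and to 60.5, 60.2 and 60.6 CPM, with edgeR adjusted p-values of 0.0043 and 0.0074. Their calls were kept under all 23 alternatives run. Psmb5 changed by -0.35 ± 0.11, to 36, 37.1 and 37.4 CPM (edgeR adjusted p = 0.034), and its call was lost without any one of the 6 IL-12 libraries, with adjusted p-values up to 0.13. All 3 genes were lower in every TCM library than in any plain IL-12 library. Psma7, an alpha ring gene, had the smallest adjusted p of the members, 0.00099, at 233, 225 and 216 CPM in IL-12 and 184, 178 and 172 CPM with TCM (-0.34 ± 0.06). Psmb1 and Psma1 were among those that did not pass, at -0.03 ± 0.05 and -0.12 ± 0.06. Psmb4 was at 275, 271 and 266 CPM and at 252, 245 and 228 CPM (-0.16 ± 0.06; adjusted p = 0.044), a call lost under 11 of 23 alternatives, among them leaving out any library except IL-2 replicate 3 or IL-2 TCM replicate 1 or 3.

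Of the assembly genes, Psmd9 and Psmg2 fell with TCM in IL-12. Psmd9 was at 38.8, 38.3 and 35.7 CPM and at 32.4, 31.4 and 29.2 CPM with TCM (-0.28 ± 0.07; edgeR adjusted p = 0.0072). Psmg2 was at 41.8, 42.3 and 39 CPM and at 30.8, 35.3 and 33.7 CPM (-0.30 ± 0.10; adjusted p = 0.04), and its call was lost with upper-quartile scaling or without any one of the 6 IL-12 libraries. Neither had overlapping groups. The partner of Psmg2, Psmg1, was at 30.1, 27.8 and 31.1 CPM and 28, 26.7 and 27.3 CPM (-0.12 ± 0.09; adjusted p = 0.34), with overlap. Psme1 and Psme2 both fell, by 0.16 ± 0.05 and 0.17 ± 0.05 on the log2 scale, with edgeR adjusted p-values of 0.019 and 0.017. Both calls were lost without IL-12 replicate 1 or IL-12 TCM replicate 3, and that of Psme2 also without IL-12 replicate 2. Psmf1, the inhibitor, moved the other way: it was at 61.8, 64.2 and 58 CPM in IL-12 and 76.8, 75 and 69.9 CPM with TCM (0.27 ± 0.06; edgeR adjusted p = 0.0067). All 3 TCM libraries were above the plain ones, and the call was lost without IL-12 replicate 3, at an adjusted p of 0.051.

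**Figure D4:**
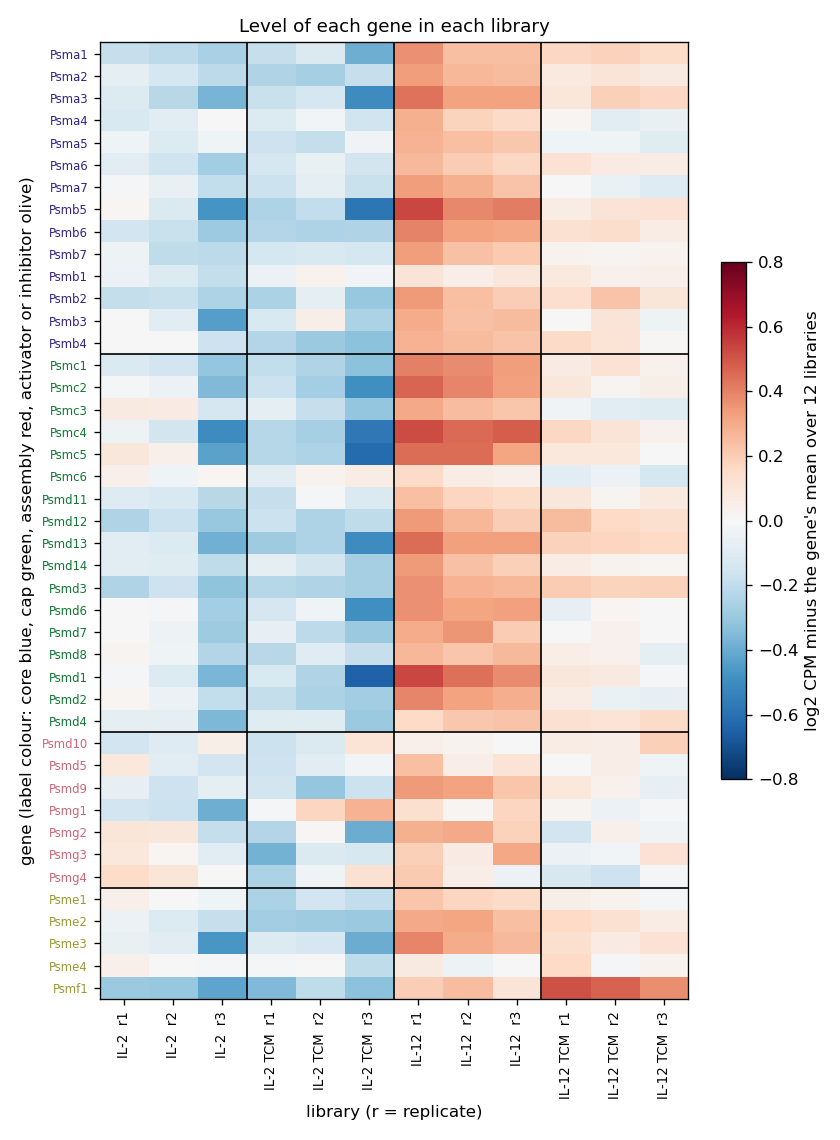
Log2 CPM of each of the 43 members (rows, by class) in each of the 12 libraries (columns), as the difference from the gene's own mean over the libraries, red higher and blue lower. Plain IL-12 columns are red for nearly all core and cap genes, replicate 3 columns of the IL-2 groups are the bluest for most cap genes, and Psmf1, Psmg1, Psmd10 and Psmg4 depart from the common pattern.

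In the IL-2 cultures TCM went with few changes of these genes. With edgeR 3 members fell, Psmb4, Psme1 and Psme2, or 6.98% of 43 beside 7.82% of all genes tested, and 1 rose, Psmg1, beside 6.73% of all genes. The members' median log2 fold change was -0.06 and that of all genes 0.00, and 33 of 43 values were below 0. Since replicate 3 deviated from replicates 1 and 2 in both IL-2 groups, the comparison was also fitted with the replicate number as a block in these groups. With that replicate block 10 members fell, and 14% of all genes tested were lower and 14% higher. Leaving out replicate 3 of both groups gave 11 that fell beside 12.4% of all genes, of which 7 were cap genes and 2 core genes. The count was 0 without IL-2 replicate 1 or replicate 2, beside 4.45% and 4.63% of all genes, and 8 without IL-2 replicate 3, beside 9.56%. It was 1 without any single IL-2 TCM library, beside 5.61% to 7.4% of all genes. With a block over all 12 libraries it was 6, beside 9.1%. When only the 6 IL-2 libraries were fitted no member rose or fell, beside 1.62% and 2.19% of all genes, with 1 and 3 members at an unadjusted p under 0.05.

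Psmg1 was at 24.8, 24.5 and 21 CPM in IL-2 and 27.2, 31.1 and 33.4 CPM in IL-2 with TCM, without overlap (0.39 ± 0.09; edgeR adjusted p = 0.01). Its rise was called under 22 of 23 alternatives, the exception being the fit of the IL-2 libraries alone, with an adjusted p of 0.10. Its log2 fold change ranged from 0.25 to 0.46 under them, and replicate 3 was its lowest library in IL-2 and its highest with TCM. The other alpha ring chaperones were at log2 fold changes of -0.20, -0.20 and -0.13 for Psmg2, Psmg3 and Psmg4, none past the threshold. Psme1 was at 335, 325 and 319 CPM in IL-2 and 274, 293 and 285 CPM with TCM (-0.20 ± 0.05; edgeR adjusted p = 0.012), and its groups were apart. Psme2 was at 260, 249 and 237 CPM and 222, 221 and 219 CPM (-0.17 ± 0.05; adjusted p = 0.031). Psmb4, a beta ring gene, was at 226, 227 and 202 CPM and 193, 185 and 181 CPM (-0.23 ± 0.06; adjusted p = 0.017). Neither gene overlapped between groups. Each of these 3 calls was lost without IL-2 replicate 1 or 2, that of Psme1 also without IL-2 TCM replicate 1, that of Psmb4 without IL-2 TCM replicate 2 or 3, and that of Psme2 without any library except IL-2 replicate 3. The catalytic subunits did not pass: Psmb5, Psmb6 and Psmb7 had log2 fold changes of -0.16 ± 0.12, -0.03 ± 0.05 and 0.01 ± 0.06, and their groups overlapped. Psmd14 at -0.03 ± 0.06 and Psmd4 at 0.00 ± 0.08 did not pass either. The spread within the IL-2 groups was wide for several cap genes. Psmc5, an ATPase, was at 96.8, 93.4 and 67.6 CPM in IL-2 and 77.7, 76.5 and 59.3 CPM with TCM, replicate 3 being the lowest in both, and its change of -0.27 ± 0.12 missed the threshold (adjusted p = 0.16). With the replicate block Psmc5 was among the 10 that fell, as were Psmc2, Psmc3, Psmd1, Psmd2 and Psmd13 of the cap.

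Whether the change with TCM differed between the cytokines was tested directly, as the change in IL-12 minus that in IL-2. With edgeR 0 of 43 members passed in either direction, beside 1.58% of all genes tested, 1.19% higher and 0.39% lower. At an unadjusted p under 0.05 there were 1 higher and 10 lower members, beside 14.8% of all genes in either direction. DESeq2 called 3 lower, Psmg1, Psma5 and Psma7, beside 1.2% of all genes, and limma 0. The difference was below 0 in 37 members, with a median of -0.17 against 0.00 for all genes. The smallest adjusted p belonged to Psmg1, 0.063, at a difference of -0.50 ± 0.12, and it was 0.045 when genes were filtered at a mean of 5 CPM. With the replicate block in the IL-2 groups 8 members were lower beside 4.14% of all genes: Psmg1, Psmc1, Psmc4, Psmd6, Psma5, Psma7, Psmb7 and Psmb3. Without replicate 3 of both IL-2 groups there were 12, beside 6.24%, of which 6 were core and 5 cap genes. Psmg1 was among the 12, at a smaller difference of -0.37. The count was 5 without IL-2 TCM replicate 3, beside 3.06% of all genes, and 1 without IL-2 TCM replicate 1, beside 0.258%. So 21 members were called lower with TCM in IL-12 and not in IL-2, while edgeR's test of the difference over all 12 libraries called none of them. Psme1 and Psme2, which fell in both cytokines, had differences of 0.04 ± 0.06 and 0.00 ± 0.07.

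**Figure D5:**
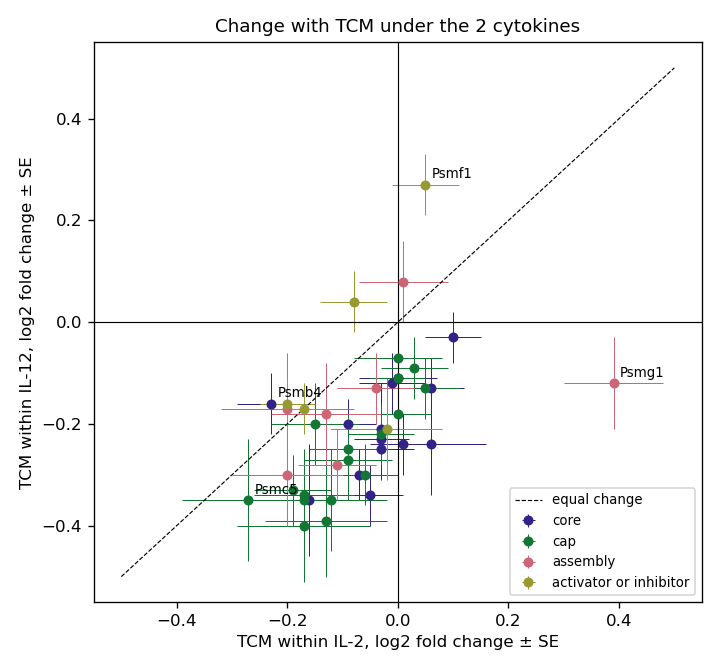
Log2 fold change with TCM within IL-2 (x axis) and within IL-12 (y axis) of the 43 members, ± SE, coloured by class; the dashed line marks equal change. The points of 37 members lie below the line, Psmf1 is at 0.05 and 0.27, and Psmg1 at 0.39 and -0.12.

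Over the 12 libraries, with the differences between groups included, most members varied together, the assembly chaperones less closely by these values. As a description over libraries that share groups and depth, the Pearson correlation of each member's log2 level with the mean of the other 42 had a median of 0.94 (n = 12), and 27 of 43 were above 0.9. The median was 0.95 for the cap, 0.94 for the core and 0.73 for the assembly genes, of which 0 of 7 were above 0.9. The members least like the rest were Psmg4 at 0.16, Psmd10 at 0.25, Psmg1 at 0.26 and Psmc6 at 0.29. Psmd13 and Psmd14, both of the lid, were at 0.98. With the group means taken out, the correlations ranged from -0.76 for Psmd10 to 0.96 for Psmd13. Psmb5 and Psmc4 were then at 0.94 and 0.91, while Psma5 was at -0.34. Psmd9 went from 0.90 to -0.09 and Psma4 from 0.82 to 0.05. The ratio of summed cap to summed core levels was 1.20 to 1.21 in IL-12, 1.13 to 1.16 in IL-12 with TCM, 1.11 to 1.20 in IL-2 and 1.07 to 1.16 in IL-2 with TCM, replicate 3 being the lowest of both IL-2 groups. The ratio of assembly to core levels was 0.0887 to 0.0891 in IL-12 and 0.0951 to 0.109 in the 6 IL-2 libraries.

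Of the 3 immunoproteasome genes, which are no members, Psmb9 was lower in plain IL-12 than in plain IL-2, a comparison in which no member was lower. Psmb9, whose product replaces that of Psmb6, was at 262, 257 and 269 CPM in IL-2 and 230, 227 and 217 CPM in IL-12, a fall of 0.22 ± 0.05 on the log2 scale, and Psmb9 rose with TCM in both cytokines, by 0.17 and 0.20. Per kilobase, the ratio of Psmb9 to Psmb6 was 1.57 to 1.77 in IL-2, 1.74 to 1.99 in IL-2 with TCM, 0.942 to 0.978 in IL-12 and 1.27 to 1.33 in IL-12 with TCM, with no overlap between the cytokines. Psmb10 fell with TCM in both cytokines, by 0.42 and 0.23, while Psmb8 did not pass in either. In IL-12 against IL-2 neither Psmb8 nor Psmb10 passed without TCM, at 0.13 ± 0.05 and 0.05 ± 0.07. With TCM in both arms they were higher in IL-12, by 0.18 ± 0.05 and 0.23 ± 0.07 (edgeR adjusted p = 0.016 and 0.024), and Psmb9 was lower, at -0.19 ± 0.05 (adjusted p = 0.012). The ratio of Psmb8 to Psmb5 per kilobase was 4.34 to 5.52 in IL-2, 4.73 to 6.48 in IL-2 with TCM, 3.2 to 3.49 in IL-12 and 4.19 to 4.72 in IL-12 with TCM. That of Psmb10 to Psmb7 was 2.44 to 2.58, 1.66 to 2.08, 1.85 to 2.02 and 1.85 to 2.06 in the same order.

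Other genes of the ubiquitin and proteasome pathway were counted from lists of genes outside the member set. In IL-12 against IL-2 without TCM, 11 of 14 deubiquitinase, shuttle and unfoldase genes rose and none fell, 3 of 6 further subunits and assembly factors rose and 1 fell, and 1 of 6 ubiquitin and activating enzyme genes rose, beside 22.1% of all genes tested that were higher and 23% that were lower. Uba1, the main ubiquitin-activating enzyme, was at 545, 531 and 507 CPM in IL-2 and 916, 858 and 881 CPM in IL-12 (0.75 ± 0.05; edgeR adjusted p = 9.9e-08). Pomp, the maturation factor of the core, was at 114, 109 and 98.9 CPM and 160, 157 and 149 CPM (0.53 ± 0.07; edgeR adjusted p = 5.5e-05). Neither gene overlapped between groups, and with TCM in both arms the changes were 0.86 and 0.52. With TCM in IL-12, 6 of the 14 deubiquitinase, shuttle and unfoldase genes fell and none rose, beside 14.2% of all genes that were lower. Usp14 and Uchl5, the deubiquitinases that dock on the cap, led this list: Usp14 was at 80, 73.9 and 77.4 CPM in IL-12 and 55.8, 52.7 and 53.3 CPM with TCM (-0.52 ± 0.05; edgeR adjusted p = 2.1e-05), and Uchl5 at 100, 93.5 and 92.7 CPM and 69.9, 75.6 and 70.8 CPM (-0.41 ± 0.08; adjusted p = 0.0031). Usp14 was the one gene of these lists whose change with TCM differed between the cytokines, by -0.34 ± 0.07 (adjusted p = 0.031). In IL-2, Zfand2a, an adaptor of the proteasome in arsenite stress, fell with TCM, from 24.9, 23 and 23.8 CPM to 18.9, 14.9 and 15.7 CPM (-0.53 ± 0.09; adjusted p = 0.0016). Of 6 genes that control proteasome transcription, Nfe2l2 fell with TCM in both cytokines, by 0.47 and 0.39, and Nfe2l1, the factor that induces proteasome genes when the proteasome is inhibited, did not pass in any of the comparisons.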

How the data were processed

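RNA-seq was measured in 12 libraries (4 groups of 3). The authors deposited a table of read counts per gene and, per library, normalized values, treated as signal; the deposited signal equals the counts divided by 1 constant per library, the TMM effective library size over all genes. STAR 2.7.7a and edgeR are named per the submitters' processing notes, which give GRCh38 as build although the gene identifiers are mouse; for the counter and its strand setting the sources used here give nothing. The labels describe extraction from livers of mice given vehicle or bortezomib, a proteasome inhibitor that no title or treatment label includes, which could not be settled here, and name a directional kit.

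From the counts, genes were filtered (edgeR 4.0.16 filterByExpr, minimum count 10, minimum total 15), scaled by TMM and tested by the quasi-likelihood F test with 4 group means over all 12 libraries, adjusted by the Benjamini-Hochberg method over 15897 genes, threshold 0.05. CPM levels use the same scaling, and errors of fold changes are SE. Alternatives used DESeq2 1.42.0, limma 3.58.1 on log2(value + 1) or log2(value + 0.1), other scalings and filters, a replicate block, and libraries left out. Members had at least 100081 counts per library in sum, so no counting intervals are given. Promoters came from RefSeq (GRCm38.p6) and exon lengths from GENCODE, as the merged exons of all transcripts of a gene in its basic set. Levels and ratios per kilobase depend on this choice of length.

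Deviations from group means correlated between same-numbered libraries of the IL-2 groups (0.43, 0.40 and 0.68), though replicates 1 and 2 were as alike across numbers (0.45 and 0.41); other group pairs gave -0.09 to 0.13. So these values set replicate 3 apart from replicates 1 and 2 and do not show pairing by number. The main test used no block. A block by number in the IL-2 groups only, and another over all 12 libraries, were run as alternatives.

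Members, gene lists and tests were chosen with earlier results of these data known. Genes named with values were fixed by rule: Psmb5, Psmb6, Psmb7, Psmd14, Psmd4, Psme1, Psme2, Psmg1, the 3 called members with the highest and the 3 with the lowest log2 fold change per comparison, and per class the called member with the largest change; of the pathway lists, the 2 called genes with the smallest p per comparison. Psmc5, Psmc6, Psmd2, Psma7, Psma1, Psmd10, Psmg3, Psmg4, Psme4, Nfe2l1 and Nfe2l2 were added after their values were seen, as were Psmd9 and Psmg2 where outside the rule. Of the pathway lists, Paaf1 was not matched.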

Additional observations from a re-analysis of the deposited data

How the results depend on the processing

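Of the 42 calls of named genes, 19 were kept under all 23 alternatives and none reversed. The counts that changed by over 1.5 times were these. With TCM in IL-2, 1 member rose and 3 fell; fitting the 6 IL-2 libraries alone gave 0 and 0, the replicate block over all libraries 6 that fell, the replicate block in IL-2 cultures only 10, and dropping both IL-2 libraries numbered 3 gave 11. Leaving out single libraries gave 0 to 8 that fell. With TCM in IL-12, leaving out single libraries gave 0 to 1 that rose and 10 to 29 that fell. In IL-12 against IL-2 with TCM it gave 17 to 28 that rose, and upper-quartile scaling gave 2 that fell. In IL-12 against IL-2 without TCM the count that rose was 36 to 38 with single libraries left out and 33 with upper-quartile scaling. For the difference of the TCM effects, 0 members were lower; no filter gave 1, a mean of at least 5 CPM 1, DESeq2 3, the replicate block in IL-2 cultures only 8, dropping both IL-2 libraries numbered 3 gave 12, and single libraries 0 to 5. The replicate block over all libraries changed no other count by over 1.5 times. The shares of all genes tested moved with these settings as well. Among all genes, 2.19% fell with TCM in the fit of the 6 IL-2 libraries alone and 14% with the replicate block in IL-2 cultures only. The cause of these changes was not tested.

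Values near 0 that changed sign were all uncalled. With TCM in IL-2, Psmb7 went to -0.01 without both IL-2 libraries numbered 3. Psmd4 went to 0.00 with DESeq2 size factors, no filter, the DESeq2 test and the replicate block in IL-2 cultures only, to 0.01 with a mean of at least 5 CPM and both limma fits, and to 0.02 with upper-quartile scaling. The difference for Psme2 went to 0.00 with upper-quartile scaling and 0.02 without both IL-2 libraries numbered 3. Leaving out single libraries moved Psmb6 from -0.08 to 0.01, Psmb7 from -0.02 to 0.08, Psmd14 from -0.08 to 0.03 and Psmd4 from -0.10 to 0.07 with TCM in IL-2, and the difference from -0.15 to 0.01 for Psmd4, from -0.01 to 0.05 for Psme1 and from -0.06 to 0.03 for Psme2. With 3 libraries per group, a gene with a larger SE needs a larger change to pass. In the TCM comparisons within IL-2 and within IL-12, the SE of Psmg3 was 0.12 and 0.11 at a mean of 6.27 CPM. That of Psmc4, at 132 CPM, was 0.11 in both, and that of Psmd9, at 30.9 CPM, was 0.07 in both. Whether level and SE go together was not tested.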
